A study of Mus musculus with 48 samples.

Results

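The 10 genes described here set the entry of a macrophage into the cell cycle: the D cyclins Ccnd1, Ccnd2 and Ccnd3, their partner kinases Cdk4 and Cdk6, the CDK inhibitors Cdkn1a (p21), Cdkn1b (p27) and Cdkn2c (p18), and the transcription factor Myc with its antagonist Mxd1. They were taken by symbol from the 49315 genes of a count table of mouse bone marrow-derived macrophages, and each matched 1 Ensembl identifier. All 10 were among the 13986 genes that passed the filter on low counts. The 12 groups were LynKO (no Lyn), LynAKO (no LynA isoform), LynBKO (no LynB isoform) and wild-type (WT) cells, each given LPS at 2 ng/mL, R848 at 20 ng/mL or medium without ligand (NT) for 2 h. LPS is a bacterial ligand of Toll-like receptor 4, and R848 (resiquimod) is a synthetic ligand of Toll-like receptor 7 in the mouse. Marrow of 4 mice per genotype, 2 male and 2 female, was grown for 7 days with M-CSF. The cells of every group were then rested overnight and treated in medium free of M-CSF, the growth factor on which macrophage proliferation depends. Lyn is a Src-family kinase whose alternative transcripts give the LynA and LynB proteins. The labels give neither the age of the mice nor how the alleles were made.

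A D cyclin binds CDK4 or CDK6, and the pair phosphorylates the retinoblastoma protein so that E2F factors can switch on the genes of DNA replication. CDKN2C, an INK4 protein, binds CDK4 and CDK6 and displaces the cyclin. CDKN1A and CDKN1B chiefly inhibit CDK2 complexes. CDKN1A is a classical p53 target, and CDKN1B transcription is raised by FOXO factors. MYC pairs with MAX on E-box sequences and activates genes of growth and ribosome assembly, while MXD1 pairs with MAX on such sequences and represses. In macrophages, M-CSF is the classical inducer of Ccnd1 and Myc.

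Libraries held 14974764 to 23321447 counts, and the members held between 25 and 25885 counts in a library. Lyn had 64.0 to 119 CPM (library-size-scaled counts, with TMM factors) in the 12 LynKO libraries and 107 to 273 CPM in the 24 libraries of the single-isoform knockouts, against 167 to 398 CPM in the 12 WT libraries. At a given treatment every LynKO library lay below every single-isoform knockout library, and these lay below every WT library, although LynKO cells kept Lyn reads. LynAKO and LynBKO libraries overlapped at each treatment, with means of 117.9 and 125.5 CPM without ligand. Counts per gene therefore cannot tell the LynAKO label from the LynBKO label. The 7 macrophage markers were all above 1 CPM in every group and summed to 19600 to 43100 CPM, while 7 neutrophil markers summed to at most 23.5 CPM. The sums of the dendritic cell, B cell, T cell, fibroblast, mast cell, erythroid and endothelial lists were each below 13 CPM. The libraries labelled LynBKO NT 4 and LynKO NT 4, both from females, held Xist at 147.5 and 293.7 CPM together with Y-linked transcripts at 161.6 and 89.63 CPM, whereas the other 46 libraries fitted their sex labels. Calls that changed when these 2 libraries were left out are given beside the results. Mice are named by their replicate number, which is tied to the genotype in the library names. In LynBKO NT, numbers 2 and 3 carry the opposite sex to the same numbers with LPS and R848, so there a shared number is not 1 mouse.

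In WT cells without ligand, the inhibitors and Cdk4 stood above the cyclins. Levels of different genes were set side by side as CPM per kb of all their annotated exons, for Ccnd3 8775 bases from 21 transcripts. Which transcripts were expressed was not measured, so the order of genes on this scale is approximate. Cdkn1a averaged 59.7 ± 7.09 (SD, n = 4), Cdkn1b 24.2 ± 0.845, Cdk4 22.8 ± 1.29, Cdkn2c 6.98 ± 0.906, Ccnd3 3.72 ± 0.243, Mxd1 2.12 ± 0.232, Ccnd1 2.12 ± 1.19, Cdk6 1.78 ± 0.313, Myc 1.43 ± 0.600 and Ccnd2 0.189 ± 0.0944. Among neighbours in this order, the libraries of Cdkn1b and Cdk4 overlapped, as did those of Mxd1 and Ccnd1, Ccnd1 and Cdk6, and Cdk6 and Myc. Ccnd1, whose libraries ran from 1.13 to 3.80 CPM per kb, also overlapped Ccnd3 at 3.45 to 4.03, since WT mouse 2 had slightly more Ccnd1 than Ccnd3 per kb. With LPS the order differed. Cdkn1a stayed first at 417 ± 71.5 CPM per kb, Cdk6 followed Cdkn1b at 19.6 ± 1.64 beside Cdk4 at 17.6 ± 0.282, and Ccnd2 stood at 9.42 ± 1.94, above Ccnd3 at 2.65 ± 0.418 and Ccnd1 at 1.38 ± 0.915.

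Both ligands moved most of these genes within 2 h, in each genotype. With LPS, 8 of 10 members passed the test (edgeR, adjusted p below 0.05) in LynAKO, LynBKO and WT cells and 7 of 10 in LynKO cells, where 60.7%, 67.3%, 61.6% and 61.7% of all tested genes did. With R848, 9 of 10 passed in LynAKO, LynBKO and WT cells and 8 of 10 in LynKO cells, against 56%, 63.5%, 56.7% and 55.3% of all genes. Of these 66 calls in 80 tests, 36 were higher and 30 lower with ligand. Ccnd2, Cdk6, Cdkn1a and Myc rose with both ligands in the 4 genotypes, and Ccnd3 and Cdkn2c fell with both. Mxd1 rose with LPS and fell with R848. Between the ligands themselves, given at different doses, 7 of 10 members differed in LynAKO cells (17.6% of all genes), 8 in LynBKO cells (26.5%), 6 in LynKO cells (15.9%) and 6 in WT cells (21%).

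**Figure D1:**
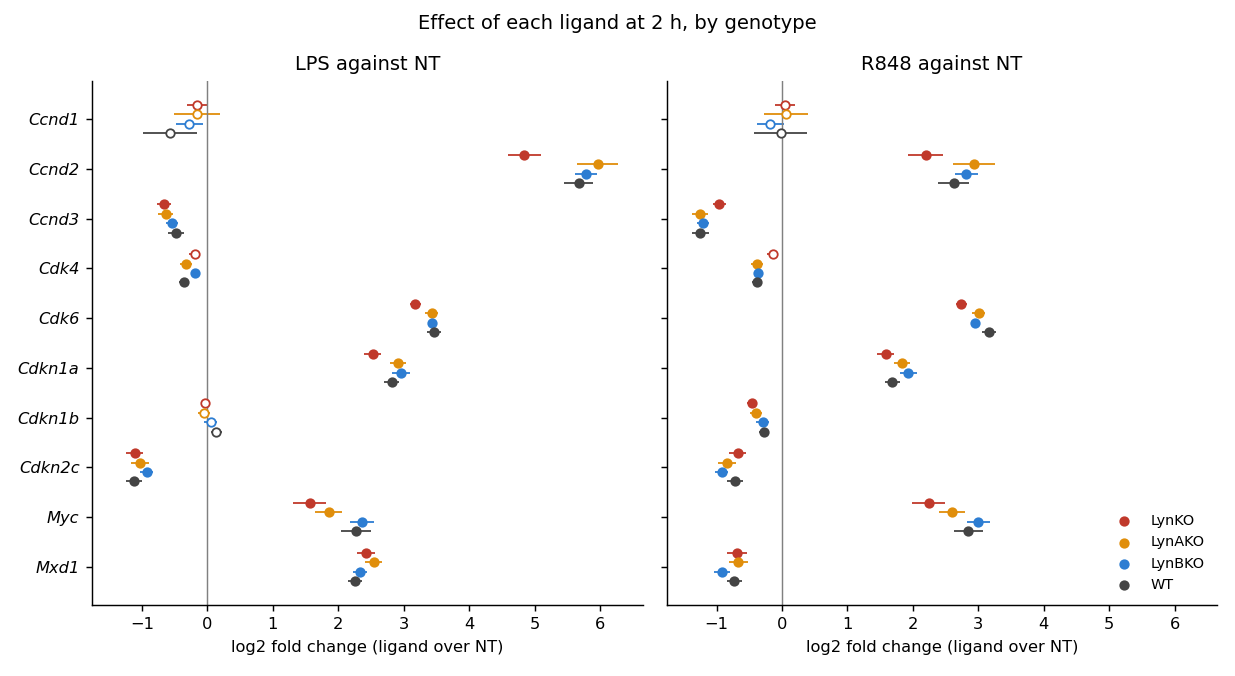
Log2 fold change (x axis, ligand over NT) of each member (y axis) with LPS (left) and R848 (right) in LynKO, LynAKO, LynBKO and WT cells. Points are edgeR estimates from 4 libraries a group, bars are ±1 SE, and filled points passed adjusted p below 0.05. Ccnd2 with LPS lies farthest right, at 4.84 to 5.96, and Mxd1 lies right of 0 with LPS and left of 0 with R848 in each genotype.

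Ccnd2 (chromosome 6, 127125162 to 127152193, minus strand, build GRCm38) carried the largest ligand response of the 3 D cyclins. In WT cells it had 116, 80.2, 79.1 and 79.2 CPM with LPS and 10.5, 10.3, 11.3 and 10.1 CPM with R848, against 3.07, 1.66, 1.26 and 1.13 CPM without ligand. The 3 treatments did not overlap, with LPS far above R848 and R848 above NT. The rise was 51.1-fold with LPS (log2 fold change 5.68 ± 0.22, SE; edgeR, adjusted p = 1.96e-13) and 6.16-fold with R848 (2.62 ± 0.23; adjusted p = 1.77e-08), and LPS exceeded R848 by 3.05 ± 0.18 on the log2 scale (adjusted p = 1.12e-09). In LynKO cells the corresponding log2 changes were 4.84 ± 0.25 with LPS and 2.20 ± 0.26 with R848, in LynAKO cells 5.96 ± 0.31 and 2.94 ± 0.32, and in LynBKO cells 5.79 ± 0.17 and 2.81 ± 0.18. LynKO cells had 131, 92.5, 87.3 and 56.7 CPM with LPS, against 4.23, 2.93, 1.95 and 3.62 CPM without ligand, and both overlapped the WT range. The antisense transcripts 9330179D12Rik and Gm43126, which share 368 and 372 exon bases with Ccnd2, stayed at or below 0.644 and 0.066 CPM.

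Ccnd3 (chromosome 17, 47505051 to 47599691, plus strand), the D cyclin with the highest mean level per kb in untreated WT cells, fell with both ligands. In WT cells it had 28.1, 19.6, 21.6 and 23.8 CPM with LPS and 16.6, 13.6, 11.1 and 12.4 CPM with R848, against 35.4, 32.8, 32.1 and 30.2 CPM in NT cells. All ligand-treated libraries were below all NT libraries. The log2 change was -0.48 ± 0.12 with LPS (edgeR, adjusted p = 0.00292) and -1.25 ± 0.13 with R848 (adjusted p = 1.98e-07). LPS left more Ccnd3 than R848 in LynAKO, LynBKO and WT cells, by 0.61 to 0.77 on the log2 scale. In LynKO cells that difference was 0.29 ± 0.10 and did not pass (adjusted p = 0.0715; 0.014 with the mouse as a block, 0.0441 with DESeq2, 0.0163 adjusted for sex and 0.0392 without LynKO mouse 4).

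Ccnd1 (chromosome 7, 144929931 to 144939925, minus strand) passed in none of the 8 ligand comparisons. In WT cells it had 4.77, 12.9, 3.58 and 4.78 CPM with LPS, 9.24, 16.6, 6.45 and 6.07 CPM with R848 and 6.79, 17.9, 9.89 and 5.34 CPM without ligand. Mouse 2 was the highest of the WT mice in all 3 treatments, and so was mouse 1 among the LynAKO mice, at 16, 15.9 and 18.3 CPM with LPS, with R848 and without ligand. Within each WT mouse, LPS was below NT, at 0.362 to 0.895 of its level. The log2 change with LPS in WT cells was -0.57 ± 0.41 (edgeR, adjusted p = 0.246). It passed with the mouse as a block (adjusted p = 0.00639), without the filter (0.00169) and without WT mouse 2 (0.0245). LPS against R848 gave -0.55 ± 0.42 in WT cells (adjusted p = 0.404; 0.0226 with the block and 0.0221 without the filter).

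The make-up of the D-cyclin pool was read from levels per kb. Without ligand, Ccnd3 gave 63.4% ± 11.0 of the summed D-cyclin level per kb in WT cells (SD, n = 4) and Ccnd2 3.19% ± 1.63. With LPS, Ccnd2 gave 69.8% ± 4.94 in WT cells and 57.0% to 71.9% on average in the 4 genotypes. The summed level was 13.5 ± 2.21 CPM per kb with LPS and 4.68 ± 1.13 with R848 in WT cells, against 6.03 ± 1.25 without ligand. These shares depend on the annotated exon length of each gene, describe levels and were not tested.

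**Figure D2:**
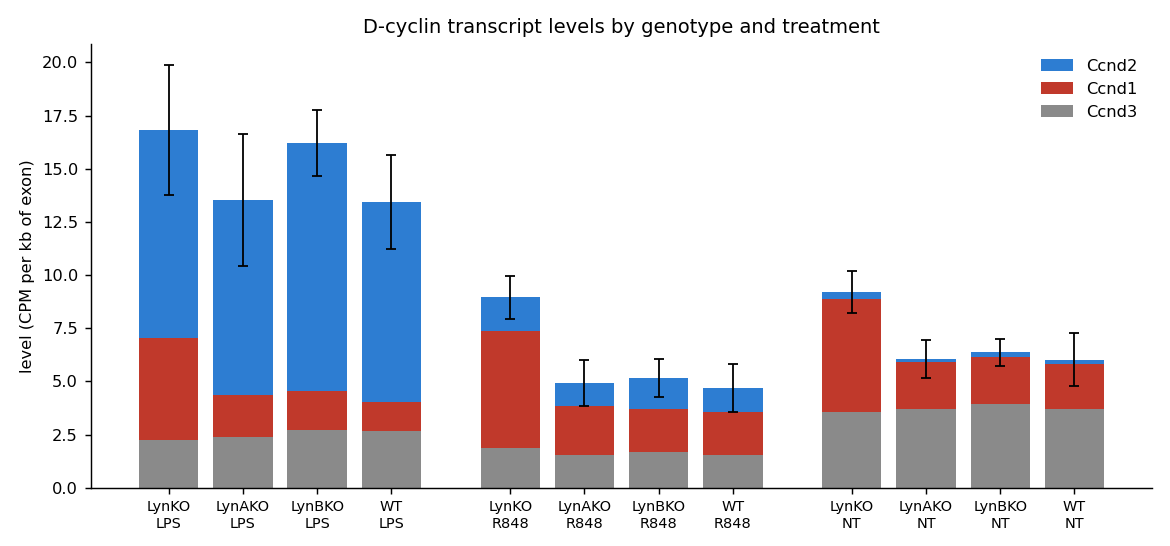
Level of Ccnd1, Ccnd2 and Ccnd3 (y axis, CPM per kb of exon, stacked group means) in each genotype and treatment (x axis). Black bars are the SD of the summed level over 4 libraries. Ccnd2 makes up most of each LPS bar. The share of Ccnd1, taken in each library and then averaged, was 57.6% in LynKO NT cells, against 33.5% in WT NT cells.

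Cdk6 and Cdk4, which bind the same cyclins, moved in opposite directions with ligand. Cdk6 (chromosome 5, 3341485 to 3531008, plus strand) had 241, 276, 289 and 290 CPM with LPS and 224, 199, 223 and 233 CPM with R848 in WT cells, against 18.7, 28.4, 27.4 and 25.3 CPM in NT cells. Every ligand-treated library exceeded every NT library several-fold. The rise was 11.1-fold with LPS (log2 3.47 ± 0.11; edgeR, adjusted p = 3.42e-14) and 8.97-fold with R848 (log2 3.16 ± 0.11; adjusted p = 1.52e-13), and in the knockouts the log2 changes ran from 3.18 to 3.43 with LPS and from 2.74 to 3.00 with R848. LPS exceeded R848 by 0.42 to 0.48 on the log2 scale in the 3 knockouts. In WT cells the same difference was 0.30 ± 0.11 and missed the threshold (adjusted p = 0.0523; 0.0203 with the mouse as a block, 0.00422 without WT mouse 1, and 0.00783 to 0.0391 with DESeq2, RLE size factors, no filter, sex as a covariate or all libraries in the fit).

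Cdk4 (chromosome 10, 127063534 to 127067920, plus strand) was the least variable member over the 48 libraries, between 47.1 and 79.6 CPM. In WT cells it had 57.8, 56, 57.2 and 58 CPM with LPS and 59.6, 55.6, 49.1 and 59.1 CPM with R848, against 79.6, 73.2, 69.4 and 74.3 CPM without ligand. The ligand-treated libraries lay below the NT libraries without overlap. The log2 change was -0.36 ± 0.08 with LPS (edgeR, adjusted p = 0.000782) and -0.38 ± 0.08 with R848 (adjusted p = 0.000576). In LynBKO cells the LPS call (-0.19 ± 0.06; adjusted p = 0.00882) was lost without the LynBKO libraries numbered 2, which differ in sex between LPS and NT (adjusted p = 0.112). LPS against R848 passed in 1 of 4 genotypes, LynBKO (0.17 ± 0.06; adjusted p = 0.0418), a call that was lost when replicate number was a block (0.0671), under RLE size factors, no filter or all libraries in the fit (0.0557 to 0.192), without the libraries of both sexes (0.076) and without any 1 LynBKO number (0.0777 to 0.291). In LynKO cells the changes against NT were -0.19 ± 0.09 with LPS (adjusted p = 0.064; 0.0109 with the mouse as a block, 0.0435 adjusted for sex, 0.0341 with all libraries in the fit and 0.00325 without LynKO mouse 4) and -0.14 ± 0.09 with R848 (adjusted p = 0.17; 0.038 without LynKO mouse 4). Cdk4 shares 641 exon bases with Tspan31 on the other strand, whose log2 changes in WT cells were 0.02 and -0.08 with LPS and R848 (adjusted p = 0.871 and 0.335).

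The promoters of these partner kinases are shown because their transcripts moved in opposite directions while Myc rose. Each is the 250 bases before and 50 bases after the annotated start, on the plus strand, from RefSeq on build GRCm38.p6, with every match in capitals to the E-box (CACGTG), the E2F motif (TTTNNCGC), the TATA motif (TATAAA), the AP-1 motif (TGANTCA), the NF-kB motif (GGGNN followed by TTTCC) or the CRE core (TGACGT) on either strand.
Cdk4, chr10:127063285-127063584: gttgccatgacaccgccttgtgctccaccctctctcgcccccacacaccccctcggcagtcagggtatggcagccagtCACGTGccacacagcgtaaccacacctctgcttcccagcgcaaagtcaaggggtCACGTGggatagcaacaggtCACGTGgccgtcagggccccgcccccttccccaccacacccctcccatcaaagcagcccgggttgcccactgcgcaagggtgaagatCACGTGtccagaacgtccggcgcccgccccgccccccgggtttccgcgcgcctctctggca
Cdk6, chr5:3343643-3343942: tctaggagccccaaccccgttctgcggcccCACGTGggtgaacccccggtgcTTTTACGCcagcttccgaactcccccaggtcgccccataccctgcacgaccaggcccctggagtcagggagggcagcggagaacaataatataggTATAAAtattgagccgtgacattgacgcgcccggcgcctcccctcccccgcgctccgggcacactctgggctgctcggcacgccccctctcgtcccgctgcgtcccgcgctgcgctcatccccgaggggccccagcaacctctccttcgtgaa
All 4 capital stretches of the Cdk4 promoter are E-boxes, whose first bases lie at -172, -118, -98 and -11 from the start site. Of 32851 mouse promoters of this length, 7.15% hold at least 1 E-box and 8 (0.0244%) hold at least 4. The Cdk6 promoter holds an E-box at -220, an E2F match at -198 (motif in 5.17% of promoters) and a TATA match at -103 (13.6%). A match describes the sequence only, and binding was not measured.

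Among the inhibitors, Cdkn1a (chromosome 17, 29090976 to 29100727, plus strand) rose and Cdkn2c fell with both ligands. Cdkn1a had 1840, 1318, 1487 and 1285 CPM with LPS and 612, 613, 706 and 741 CPM with R848 in WT cells, against 238, 229, 185 and 197 CPM without ligand. The 3 treatments did not overlap. The log2 change was 2.82 ± 0.11 with LPS (edgeR, adjusted p = 6.87e-13) and 1.68 ± 0.11 with R848 (adjusted p = 9.26e-10). LPS exceeded R848 in each genotype, by 0.95 to 1.13 on the log2 scale (adjusted p between 8.38e-07 and 8.12e-05).

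Cdkn2c (chromosome 4, 109660876 to 109667189, minus strand) had 7.97, 8.84, 8.37 and 9.13 CPM with LPS and 12.1, 11.7, 10.6 and 10.3 CPM with R848 in WT cells, against 15.3, 19, 19.9 and 20.8 CPM without ligand. Each ligand-treated WT library was below each NT library. The log2 change was -1.11 ± 0.12 with LPS (edgeR, adjusted p = 3.28e-07) and -0.72 ± 0.12 with R848 (adjusted p = 5.76e-05). LPS was below R848 in LynKO (-0.43 ± 0.13; adjusted p = 0.0377) and WT cells (-0.39 ± 0.13; adjusted p = 0.0332). The LynKO call was lost without mouse 1, 3 or 4 (adjusted p = 0.184, 0.132 and 0.0651), and the WT call without mouse 1, 2 or 3 (adjusted p = 0.111, 0.149 and 0.123) and without the filter (0.1).

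Cdkn1b (chromosome 6, 134920401 to 134925513, plus strand) fell with R848 and passed in no LPS comparison. In WT cells it had 122, 114, 132 and 112 CPM with LPS and 96.6, 85.1, 94.9 and 79.2 CPM with R848, against 116, 107, 109 and 109 CPM without ligand. The R848 libraries were all below the NT libraries, whereas the LPS libraries overlapped them. The log2 change with R848 was -0.28 ± 0.08 in WT cells (edgeR, adjusted p = 0.00742; 0.0589 without WT mouse 4), -0.45 ± 0.08 in LynKO cells (adjusted p = 0.000117), -0.40 ± 0.09 in LynAKO cells (adjusted p = 0.00126) and -0.30 ± 0.10 in LynBKO cells (adjusted p = 0.015; 0.105 and 0.0865 without the libraries numbered 3, which differ in sex, and 4). With LPS it ran from -0.05 to 0.14, with adjusted p of 0.145 or more. LPS exceeded R848 in each genotype, by 0.35 to 0.42 (adjusted p between 0.000976 and 0.015), a call lost without LynAKO mouse 1, 2 or 3 (0.0569 to 0.108) and without LynBKO mouse 2 or 4 (0.0595 and 0.0606).

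Myc (chromosome 15, 61985391 to 61990374, plus strand) rose with both ligands. In WT cells it had 20.1, 18.2, 20 and 16.8 CPM with LPS and 24.4, 37.2, 25.8 and 23.1 CPM with R848, against 1.95, 5.15, 5.31 and 3.11 CPM without ligand. Every R848 library exceeded every LPS library, and every LPS library exceeded every NT library. The log2 change was 2.28 ± 0.23 with LPS (edgeR, adjusted p = 1.05e-07) and 2.85 ± 0.22 with R848 (adjusted p = 7.09e-09). LPS was below R848 by 0.74 ± 0.19 on the log2 scale in LynAKO cells (adjusted p = 0.0112; 0.0688 without LynAKO mouse 2) and by 0.64 ± 0.16 in LynBKO cells (adjusted p = 0.00518). The difference was -0.57 ± 0.21 in WT cells (adjusted p = 0.0595; 0.0192 with the mouse as a block, 0.0473 with DESeq2, 0.000581 without the filter, 0.0361 without WT mouse 1) and -0.67 ± 0.24 in LynKO cells (adjusted p = 0.0676; 0.00245 with the block, 0.00755 without LynKO mouse 4, 0.0271 without the libraries of both sexes, and 2.01e-07 to 0.0432 with DESeq2, no filter, sex as a covariate or all libraries in the fit). LPS was below R848 within each of these 8 WT and LynKO mice.

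Mxd1 (chromosome 6, 86647042 to 86669161, minus strand) was the member whose direction depended on the ligand. It had 80.8, 64.9, 65.8 and 73.7 CPM with LPS and 8.82, 7.86, 9.07 and 9.91 CPM with R848 in WT cells, against 16, 13.2, 14.2 and 16.8 CPM without ligand. The NT libraries lay between the LPS and R848 libraries, with no overlap on either side. The log2 change was 2.26 ± 0.10 with LPS (edgeR, adjusted p = 2.63e-12) and -0.73 ± 0.11 with R848 (adjusted p = 2.81e-05), and the ligands differed directly by 2.98 ± 0.11 in WT cells (adjusted p = 4.63e-12) and by 3.11 to 3.26 in the knockouts. Per kb of exon, the Myc level was 0.690 ± 0.0870 times the Mxd1 level in WT cells with LPS and 8.24 ± 2.77 times with R848, against 0.698 ± 0.351 times without ligand (SD, n = 4). In LynKO cells these ratios were 1.07 ± 0.477 and 13.8 ± 3.03, against 1.81 ± 0.828 without ligand.

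**Figure D3:**
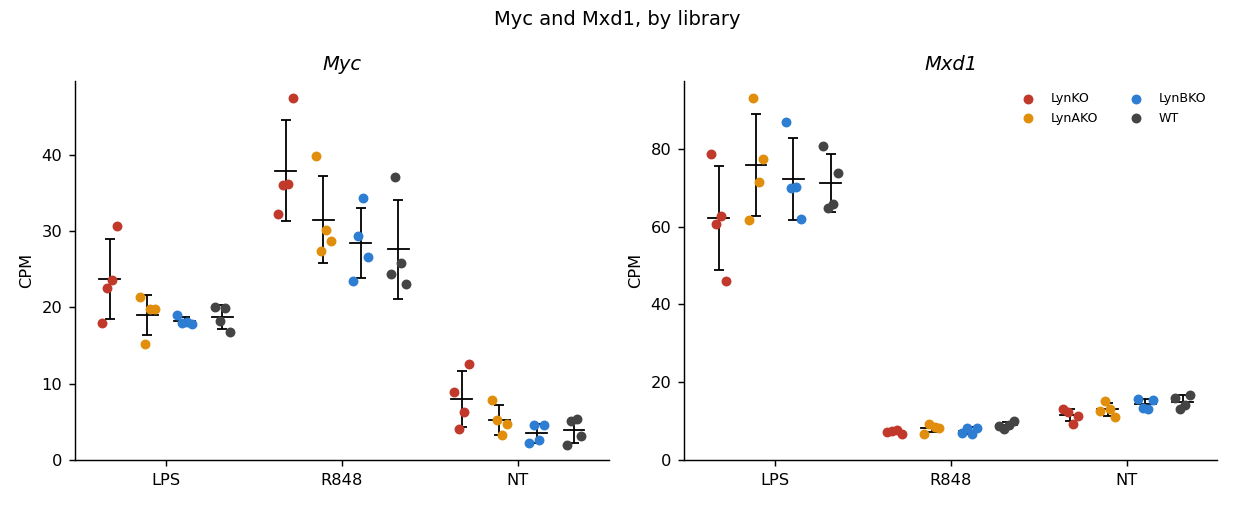
CPM (y axis) of Myc (left) and Mxd1 (right) in each library, by treatment (x axis) and genotype (colour). Lines are group means and bars the SD of 4 libraries. Myc lies highest with R848, at 23.1 to 47.4 CPM over all genotypes, where Mxd1 lies lowest, at 6.73 to 9.91 CPM.

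Other genes of the pathway were read from lists chosen for it. In WT cells 61.6% of all genes passed with LPS and 56.7% with R848. Of 22 MYC target genes, 17 rose and 0 fell with LPS in WT cells, with a median log2 change of 0.59 against -0.03 for all genes, and 16 rose and 1 fell with R848 (median 0.42 against -0.03). The ribosome assembly factors Rrs1 and Rcl1 led with LPS (2.71 ± 0.11 and 3.48 ± 0.14; edgeR, adjusted p = 3.51e-13 and 4.25e-13), with Odc1, the first enzyme of polyamine synthesis, at 2.09 ± 0.11 (adjusted p = 3.28e-11). Of 9 tested genes of the MYC, MAX and MXD network, 3 rose and 3 fell with LPS. Mycl, a MYC paralog, rose by 6.87 ± 0.51, and the repressors Mnt and Mxd4 fell by 2.09 and 1.40 on the log2 scale (adjusted p = 4.87e-12, 1.86e-10 and 1.03e-07). Of 5 other CDK inhibitors, Cdkn2b (p15) rose with LPS (2.23 ± 0.28; adjusted p = 1.8e-06) and R848 (3.20 ± 0.28; adjusted p = 1.56e-08), and Cdkn2d (p19) rose with LPS (0.61 ± 0.14; adjusted p = 0.00121).

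The counts of the next lists also stand beside 61.6% of all genes with LPS and 56.7% with R848 in WT cells. The p53 target list, in which Cdkn1a was not counted, moved both ways. Of 17 tested genes, 5 rose and 8 fell with LPS in WT cells, and 6 rose and 8 fell with R848. Gadd45a, Fas and Mdm2 rose with LPS (2.99 ± 0.15, 2.86 ± 0.10 and 1.76 ± 0.10), and Sesn1, Trp53inp1 and Sesn2 fell (-3.77 ± 0.11, -3.44 ± 0.18 and -2.77 ± 0.15; edgeR, adjusted p at most 4.37e-11 for each). Of the 8 FOXO factors and targets, 3 rose and 5 fell with LPS (median -0.55), and 2 rose and 5 fell with R848 (median -0.58). Foxo3 fell with LPS, at -2.71 ± 0.11 (edgeR, adjusted p = 3.66e-13). Of 20 E2F-driven replication genes, 1 rose and 10 fell with LPS (median -0.51). With R848, 1 rose and 10 fell as well (median -0.54), with each ligand a share no larger than that of all genes. The licensing factor Cdt1 had the smallest adjusted p among those that fell with each ligand, at -2.86 ± 0.15 with LPS and -2.61 ± 0.15 with R848 (adjusted p = 1.64e-11 and 6.93e-11). Of 12 mitosis genes, 2 rose and 2 fell with LPS (median 0.04), and 4 rose and 1 fell with R848 (median 0.49). With each ligand this was a smaller share than that of all genes. The proliferation marker Mki67 was 1 of the 2 that rose with LPS, by 3.53 ± 0.17 (edgeR, adjusted p = 1.04e-11).

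Loss of all Lyn changed fewer members than the ligands did. Against WT, 3 of 10 members passed with LPS (8.49% of all genes), 3 with R848 (5.93%) and 2 without ligand (9.92%). Of these 8 calls in 30 tests, 6 were higher in LynKO cells, namely Ccnd1 and Cdkn2c in each treatment, and 2 were lower, Cdkn1b with LPS and Cdkn1a with R848. Beside all of these, the summed macrophage markers were lower in LynKO than in WT cells, at 20670 to 24190 against 31240 to 37190 CPM with LPS, 19580 to 24990 against 32420 to 35430 CPM with R848 and 22390 to 25160 against 35080 to 43110 CPM without ligand. Lyz2 made up most of this sum, with a median of 22800 CPM over all libraries against 30600 CPM for the sum. Over all libraries Lyz2 ran from 13000 to 36000 CPM, and no other marker of the list exceeded 4820 CPM. Of these markers only Csf1r was compared singly, as given below, and the part of the sum in the results was not tested. In these bulk libraries, more cells that express a gene and more of its RNA per cell cannot be told apart.

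Ccnd1 was higher in every LynKO library than in any WT library of the same treatment. It had 21.1, 23.8, 18.1 and 27.5 CPM with LPS in LynKO cells, against 4.77, 12.9, 3.58 and 4.78 CPM in WT cells. With R848 it had 30.5, 21.7, 22.4 and 29.8 CPM in LynKO cells, against 9.24, 16.6, 6.45 and 6.07 CPM in WT cells. Without ligand it had 27.4, 20.1, 23 and 30 CPM in LynKO cells, against 6.79, 17.9, 9.89 and 5.34 CPM in WT cells. WT mouse 2 came closest to the LynKO range each time. The difference was 3.43-fold with LPS (log2 1.78 ± 0.32; edgeR, adjusted p = 0.00171), 2.70-fold with R848 (1.43 ± 0.28; adjusted p = 0.00593) and 2.54-fold without ligand (1.34 ± 0.31; adjusted p = 0.00759), and it passed under each alternative tried. LTO1, which shares 1100 exon bases with Ccnd1 on the other strand, had log2 differences of -0.03, -0.02 and 0.06 in the same comparisons (adjusted p = 0.871, 0.952 and 0.711). Ccnd1 gave 57.6% ± 4.99 of the summed D-cyclin level per kb in untreated LynKO cells, against 33.5% ± 11.8 in untreated WT cells, and the sum was 9.22 ± 0.992 against 6.03 ± 1.25 CPM per kb.

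Cdkn2c was also higher in LynKO cells. It had 11.6, 15.3, 10.6 and 10.7 CPM with LPS in LynKO cells, against 7.97, 8.84, 8.37 and 9.13 CPM in WT cells. With R848 it had 18.1, 17.3, 14.7 and 15.8 CPM in LynKO cells, against 12.1, 11.7, 10.6 and 10.3 CPM in WT cells. Without ligand it had 31, 26, 24 and 23.3 CPM in LynKO cells, against 15.3, 19, 19.9 and 20.8 CPM in WT cells. No LynKO library fell within the WT range. The log2 difference was 0.52 ± 0.14 with LPS (edgeR, adjusted p = 0.0223), 0.56 ± 0.13 with R848 (adjusted p = 0.0148) and 0.49 ± 0.10 without ligand (adjusted p = 0.00399). The LPS call was lost without LynKO mouse 2 (adjusted p = 0.0998) or WT mouse 1 (adjusted p = 0.0638).

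The Cip/Kip inhibitors Cdkn1b and Cdkn1a had lower means in LynKO than in WT cells in each treatment, with 1 call apiece. Cdkn1b had 95, 94.6, 98.2 and 89.7 CPM with LPS in LynKO cells, against 122, 114, 132 and 112 CPM in WT cells, with no overlap. The log2 difference was -0.33 ± 0.09 with LPS (edgeR, adjusted p = 0.0305), -0.33 ± 0.10 with R848 (adjusted p = 0.0551) and -0.19 ± 0.07 without ligand (adjusted p = 0.0803). The LPS call was lost without LynKO mouse 1, 2, 3 or 4 (adjusted p = 0.056, 0.0638, 0.0505 and 0.0795) or WT mouse 1 or 3 (0.0626 and 0.0912). With R848 it passed under most other settings, with DESeq2 (0.0204), RLE size factors (0.0482), no filter (0.0328), sex as a covariate (0.0356) and all libraries in the fit (0.0121), and without LynBKO mouse 1 or 3 or WT mouse 4 (0.0416 to 0.0499). Without ligand it passed with DESeq2 (0.0359).

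Cdkn1a had 541, 483, 514 and 569 CPM with R848 in LynKO cells, against 612, 613, 706 and 741 CPM in WT cells, with no overlap. The log2 difference was -0.34 ± 0.09 with R848 (edgeR, adjusted p = 0.0253), -0.53 ± 0.18 with LPS (adjusted p = 0.0653) and -0.27 ± 0.09 without ligand (adjusted p = 0.0531). The R848 call was lost in a fit of all 48 libraries (adjusted p = 0.118) and without LynKO mouse 1, 2 or 3 (0.0557, 0.0766 and 0.0592) or WT mouse 3 or 4 (0.0706 and 0.0836). With LPS, Cdkn1a passed with all libraries in the fit (0.00726), with sex as a covariate (0.0302), without the filter (1.5e-08) and without LynAKO mouse 2 or 4, LynBKO mouse 1 or LynKO mouse 1 (0.0261 to 0.0495). Without ligand it passed with DESeq2 (0.026), no filter (0.00664) and sex as a covariate (0.0156), and without LynAKO mouse 4, LynBKO mouse 3, LynKO mouse 1 or WT mouse 3 (0.0154 to 0.0441).

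**Figure D4:**
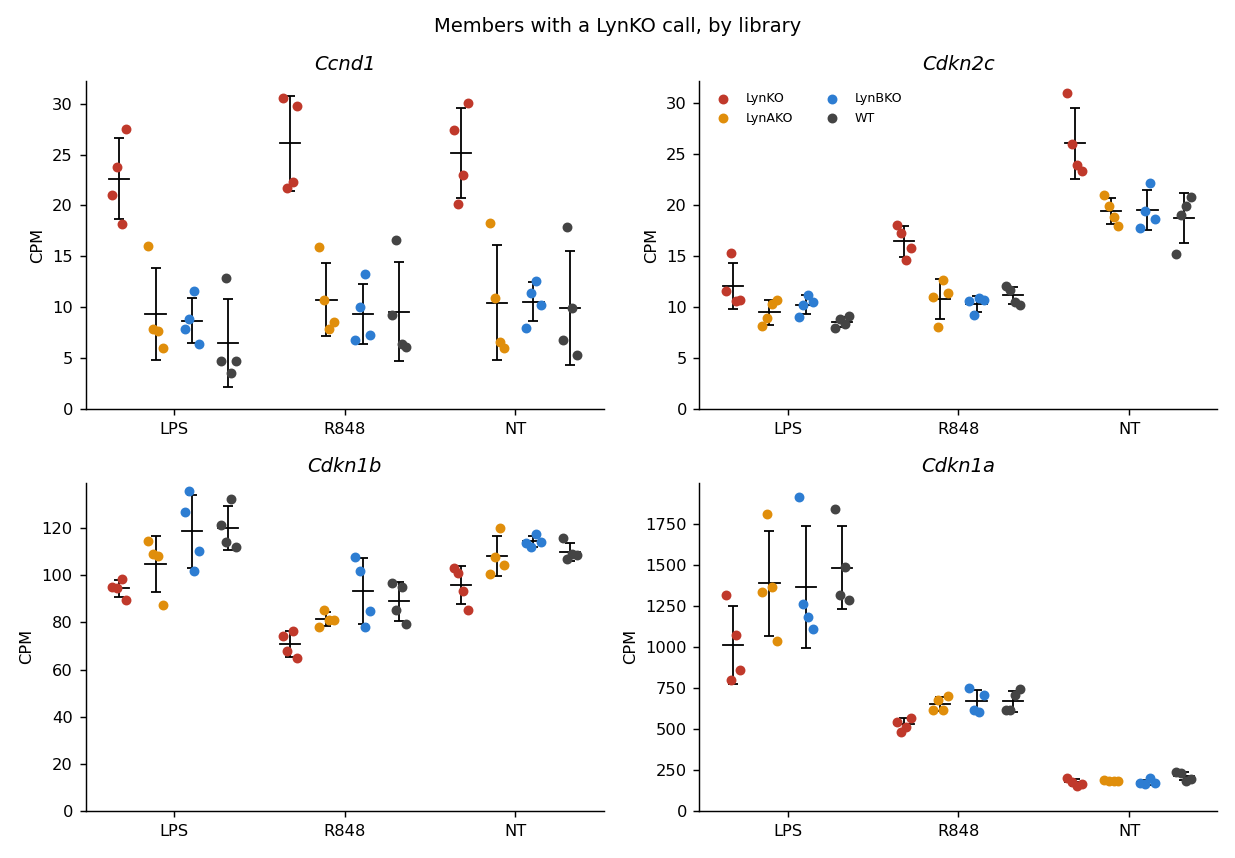
CPM (y axis) of Ccnd1, Cdkn2c, Cdkn1b and Cdkn1a in each library, by treatment (x axis) and genotype (colour). Lines are group means and bars the SD of 4 libraries. The LynKO points of Ccnd1, 18.1 to 30.5 CPM, lie above the WT points of the same treatment, while the LynAKO and LynBKO points share the WT range or lie near it.

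The other 6 members had no call between LynKO and WT cells. Myc had 8.84, 4.11, 6.24 and 12.6 CPM without ligand in LynKO cells, against 1.95, 5.15, 5.31 and 3.11 CPM in WT cells. The groups overlapped, and the log2 difference of 1.04 ± 0.34 missed the threshold (edgeR, adjusted p = 0.0569); it passed with all libraries in the fit (0.00817), without the filter (3.24e-07) and without LynAKO mouse 1 or 3, LynKO mouse 2 or WT mouse 2 or 3 (0.0219 to 0.0499). Myc differed by 0.36 ± 0.13 with LPS (adjusted p = 0.101; 0.0269 without LynKO mouse 1) and 0.46 ± 0.16 with R848 (adjusted p = 0.105; 0.0223 without WT mouse 2 and 0.00444 without the filter). Mxd1 without ligand had 13.1, 12.3, 9.36 and 11.3 CPM in LynKO cells, against 16, 13.2, 14.2 and 16.8 CPM in WT cells. The groups did not overlap, and the log2 difference of -0.37 ± 0.12 lay at the threshold (adjusted p = 0.0504). It passed with DESeq2 (0.025), RLE size factors (0.0485), no filter (0.0393) and sex as a covariate (0.0438), and without LynAKO mouse 2 or 4, LynKO mouse 1 or WT mouse 2 or 3 (0.0359 to 0.0495). Ccnd2 differed by 0.86 ± 0.31 without ligand (adjusted p = 0.0885; 0.0106 without WT mouse 1 and 0.0258 without the filter), and Cdk4 by -0.20 ± 0.07 (adjusted p = 0.0782; 0.0386 without LynAKO mouse 4 and 0.0497 with DESeq2). Ccnd3 and Cdk6 had log2 differences between -0.21 and 0.27, with adjusted p of 0.137 or more.

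Downstream genes were read in the same comparison, where 8.49%, 5.93% and 9.92% of all genes passed with LPS, with R848 and without ligand. Of 20 E2F-driven replication genes, 14 were higher in LynKO than in WT cells with LPS, 14 with R848 and 18 without ligand, and 0 were lower. Their median log2 difference was 0.80, 0.88 and 0.82, against 0.02, 0.01 and 0.01 for all genes. Of 21 genes of the G1/S cyclins and the Rb/E2F axis, 4, 3 and 7 were higher in these treatments and 0 lower, among them Ccna2 without ligand (1.45 ± 0.22; edgeR, adjusted p = 0.000242). Of 12 mitosis genes, 7, 9 and 12 were higher and 0 lower. Of 22 MYC targets, 6, 3 and 2 were higher and 0 lower, and the 2 without ligand lie near the share of all genes. Odc1 led these targets in each treatment (0.84 ± 0.09, 0.79 ± 0.12 and 0.90 ± 0.12; edgeR, adjusted p = 1.64e-05, 0.00071 and 6.3e-05). Of 17 tested p53 targets, 1 was higher and 3 lower with LPS, 0 and 3 with R848, and 1 and 5 without ligand, where Fas fell by 1.04 and Gadd45a by 0.82 on the log2 scale (adjusted p = 6.45e-05 and 0.00049). Of 12 tested M-CSF receptor and ERK-responsive genes, 1 was higher and 2 lower with LPS, and 2 and 0 with R848. Without ligand 3 were higher and 3 lower, with a median log2 difference of 0.213 for the list. The 3 lower genes were Ier3 at -1.11 ± 0.09, Egr1 at -1.81 ± 0.37 and Csf1r at -0.21 ± 0.07 (edgeR, adjusted p = 2.02e-07, 0.00264 and 0.0493).

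Cells that lacked a single Lyn isoform showed none of these calls. Against WT, 0 of 60 tests passed for LynAKO and LynBKO cells with edgeR, where 5 had an unadjusted p below 0.05, and 0 passed with DESeq2. Of all genes, 0.0215%, 0.00715% and 0.0286% passed in LynAKO cells with LPS, with R848 and without ligand, and 0.0358%, 0% and 0.0644% in LynBKO cells. Ccnd1 had 16, 7.84, 7.66 and 5.98 CPM with LPS in LynAKO cells and 7.9, 8.87, 11.6 and 6.44 CPM in LynBKO cells, against 4.77, 12.9, 3.58 and 4.78 CPM in WT cells, so the 3 groups overlapped. Without ligand it had 18.3, 10.9, 6.65 and 6.03 CPM in LynAKO cells and 8.01, 11.4, 12.6 and 10.2 CPM in LynBKO cells, and both overlapped the WT libraries. The 95% interval of the log2 difference from WT without ligand was -0.56 to 0.69 for LynAKO cells and -0.54 to 0.72 for LynBKO cells, so differences of those sizes are not excluded. For Cdkn2c the same intervals were -0.15 to 0.26 in both. LynAKO and LynBKO cells differed from each other in 0 of 30 tests with edgeR (1 with an unadjusted p below 0.05) and 0 with DESeq2, as did 0% of all genes in each treatment.

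**Figure D5:**
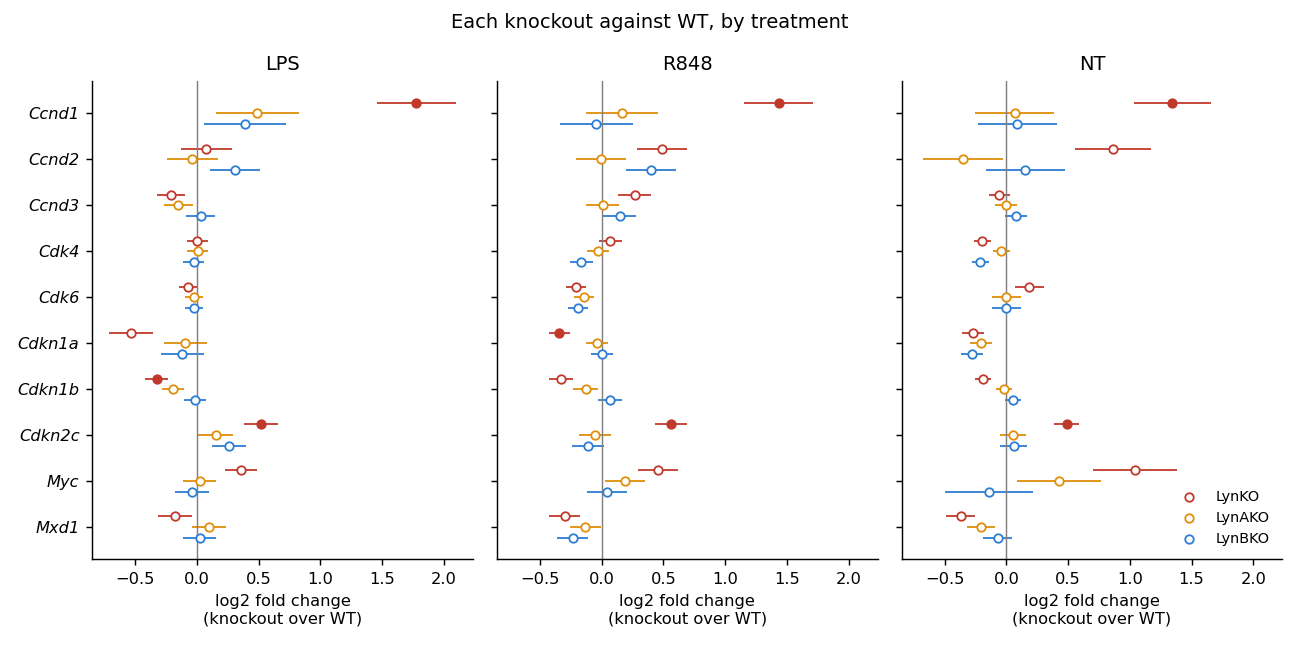
Log2 fold change (x axis, knockout over WT) of each member (y axis) in LynKO, LynAKO and LynBKO cells with LPS (left), R848 (middle) and without ligand (right). Points are edgeR estimates from 4 libraries a group, bars are ±1 SE, and filled points passed adjusted p below 0.05. The 8 filled points are LynKO points, and Ccnd1 in LynKO cells lies at 1.34 to 1.78.

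Tested directly, the single-isoform knockouts differed from LynKO in 14 of 60 tests, 3 higher and 11 lower than in LynKO cells. For LynAKO cells, 1 member passed with LPS (1.09% of all genes), 2 with R848 (0.858%) and 3 without ligand (3.39%). For LynBKO cells, 1 passed with LPS (0.629%), 4 with R848 (1.72%) and 3 without ligand (3.57%). Ccnd1 was lower than in LynKO cells in each of the 6 comparisons, and no library overlapped. The summed macrophage markers were again apart, at 26700 to 34400 CPM in LynAKO and 27030 to 34070 CPM in LynBKO cells against 19580 to 25160 CPM in LynKO cells, and their part was not tested. The log2 difference in LynAKO cells was -1.29 ± 0.31 with LPS, -1.27 ± 0.28 with R848 and -1.28 ± 0.31 without ligand (edgeR, adjusted p = 0.0475, 0.0395 and 0.0244). In LynBKO cells it was -1.39 ± 0.31, -1.48 ± 0.28 and -1.26 ± 0.31 (adjusted p = 0.0412, 0.0156 and 0.0279). Cdkn2c was lower with R848 (-0.61 ± 0.13 in LynAKO cells and -0.67 ± 0.13 in LynBKO cells; adjusted p = 0.029 and 0.0156) and without ligand (-0.43 ± 0.10 in both; adjusted p = 0.0219 and 0.0248). The other calls were Ccnd2 in untreated LynAKO cells (-1.22 ± 0.32; adjusted p = 0.0363), Cdkn1b in LynBKO cells without ligand and with R848 (0.24 ± 0.07 and 0.40 ± 0.10; adjusted p = 0.043 and 0.0489) and Cdkn1a in LynBKO cells with R848 (0.35 ± 0.09; adjusted p = 0.0489).

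Many of these calls were lost when single mice were left out, which also leaves fewer mice in the test. The number of calls was 1 without LynKO mouse 1, 7, 7 and 5 without LynKO mouse 2, 3 or 4, 6, 6 and 7 without LynAKO mouse 2, 3 or 4, and 6, 8 and 6 without LynBKO mouse 1, 2 or 4. Ccnd1 lost its call in at least 1 of its 6 comparisons without any of these mice, and also without LynBKO mouse 3 or WT mouse 1 or 4, with edgeR adjusted p between 0.0501 and 0.154. In untreated LynAKO cells the log2 difference of Ccnd1 stayed between -1.295 and -1.096 where its call was lost. Cdkn2c lost a call without LynAKO mouse 2, 3 or 4, LynBKO mouse 1, 2 or 4, or LynKO mouse 1 or 2 (adjusted p 0.0524 to 0.11). Without the libraries labelled LynBKO NT 4 and LynKO NT 4, 9 calls were left, and 5 untreated calls were lost: Ccnd1 in LynAKO (adjusted p = 0.102) and LynBKO cells (0.206), Ccnd2 in LynAKO cells (0.123), and Cdkn2c and Cdkn1b in LynBKO cells (0.106 and 0.276). LynKO against WT still gave 8 calls without these libraries. The call of Ccnd2 was lost without LynAKO mouse 1, 3 or 4 or LynKO mouse 1, 2 or 4 (0.0631 to 0.13). The Cdkn1b and Cdkn1a calls in LynBKO cells were lost without most single mice (0.05 to 0.213).

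The ligand response itself was compared between each knockout and WT as a difference of differences. With edgeR 0 of 60 tests passed, 4 had an unadjusted p below 0.05, and 0 passed with DESeq2. The share of all genes that passed was 0.1% for LPS and 0.193% for R848 in LynKO cells and 0% in LynAKO and LynBKO cells for both ligands. The Ccnd2 response to LPS was smaller by 0.82 ± 0.39 on the log2 scale in LynKO than in WT cells, which did not pass (edgeR, adjusted p = 0.602). For Myc the differences were -0.69 ± 0.35 with LPS and -0.57 ± 0.35 with R848 (adjusted p = 0.673 and 0.623). For Ccnd1 they were 0.42 ± 0.49 and 0.10 ± 0.48 (adjusted p = 0.921 and 0.965). A response difference of 1 log2 unit lies inside the 95% interval for Ccnd1 with either ligand (-0.54 to 1.38 with LPS, -0.84 to 1.04 with R848), so a difference of that size is not excluded.

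Over the 12 group means, the genes whose log2 CPM followed each member most closely were picked from 9360 genes with a mean of at least 5 CPM. They were the replication helicase subunit Mcm5 for Ccnd1 (Pearson r = 0.987), Tnip2 for Ccnd2 (0.995), Lgals8 for Ccnd3 (0.988), Commd3 for Cdk4 (0.978), Ifnar1 for Cdk6 (0.999), Sap30 for Cdkn1a (0.998), Klf13 for Cdkn1b (0.976), the replication protein Rpa1 for Cdkn2c (0.992), Rai14 for Myc (0.99) and Gm6548 for Mxd1 (0.997). For Ccnd1 the next were Asph and Tfdp1, an E2F partner (0.98 and 0.975), and for Cdkn2c Tubg1 and Hsph1 (0.988 and 0.985). With Spearman in place of Pearson, 7 of the 30 genes nearest to the members were shared and the first gene was the same for 0 of 10 members, so these names depend on the measure. The 12 means share their mice across treatments, so these values describe likeness of pattern only.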

How the data were processed

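Poly-A RNA of 48 cultures, from 16 mice, was sequenced as read pairs, per the labels' protocols. The authors deposited a table of read counts per gene and a second table on a log2 scale, the variance-stabilised values of DESeq2 for 13617 genes. Per the submitters' processing notes, reads were handled with Trimmomatic 0.36, STAR 2.5.2b and featureCounts of Subread 1.5.2 on GRCm38; which annotation release and strand setting were used is not known here, and reads of overlapping antisense genes cannot be told apart. The counts were tested here with edgeR 4.0.16 (quasi-likelihood, TMM, filterByExpr with a minimum count of 10 and total of 15, in R 4.3.3), with Benjamini-Hochberg adjustment over the 13986 genes kept. Ligands were compared in a fit of each genotype's 12 libraries, genotypes in a fit of each treatment's 16, and response differences in a fit of all 48. SEs come from the moderated fit, and 95% intervals are approximate (estimate ± normal quantile × SE). Levels per kb use the union of exons in GENCODE M21. The log2 table served only to check the counts: over 48 libraries each member's Spearman correlation between both was at least 0.9958.

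Every group has 4 mice. Library names tie the replicate number to the genotype, and within a genotype it was read as the mouse. Deviations of same-numbered libraries correlated at 0.113 to 0.42 in the 40 pairs without LynBKO NT. The 8 pairs with LynBKO NT, where numbers 2 and 3 have their sex labels exchanged, ran from -0.21 to 0.186, so the block is unsafe there. Between genotypes, equal numbers are different mice that share the number and, apart from LynBKO NT 2 and 3, the labelled sex. No 2 libraries of the same group agreed within sampling noise, and libraries of different groups were not compared in this way. The members and gene lists were chosen with earlier results of these data known. Genes named beside the members were, per list, at most 3 each way with the smallest adjusted p, and the 3 most similar genes of each member. Alternatives were DESeq2 1.42.0, RLE size factors, no filter, sex as a covariate, the replicate as a block, other libraries in the fit, and leaving out each mouse or the 2 libraries with transcripts of both sexes. The scripts' tests were checked on simulated counts.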

Additional observations from a re-analysis of the deposited data

Results flagged for a closer look

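In each group of 4 libraries, the highest or lowest value of each member was checked by Dixon's criterion. The gap to the nearest value, as a share of the range of all 4, was set against the 95% critical value. Chance alone passes this value in about 1 of 20 groups. It was passed in 5 of 120 groups, all of them with LPS. Ccnd1 had 12.9 CPM in WT mouse 2 with LPS, against 3.58 to 4.78 CPM in the other WT mice. Ccnd2 had 116 CPM in WT mouse 1 with LPS, against 79.1 to 80.2 CPM in the others. Ccnd3 had 17 CPM in LynAKO mouse 1 with LPS, against 21.7 to 22.5 CPM in the others. Cdk4 had 53 CPM in LynBKO mouse 2 with LPS, against 56.8 to 57.5 CPM in the others. Myc had 19 CPM in LynBKO mouse 1 with LPS, against 17.9 to 18 CPM in the others.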

How the results depend on the processing

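No member reversed its direction under an alternative in which it passed. The 66 calls of ligand against NT became 66 to 68, and 65 to 68 when each mouse was left out. The 27 calls of LPS against R848 became 27 to 31, and 25 to 28 without single mice. The 8 calls of LynKO against WT became 13 with DESeq2 and 16 without the filter on low counts, 10 to 12 under the other alternatives apart from the 8 without the libraries of both sexes, and 6 to 12 without single mice. The 0 calls of the single-isoform knockouts against WT became 1 without the filter (Cdkn1a in untreated LynBKO cells, adjusted p = 0.0198), and stayed at 0 to 0 without single mice. The 14 calls between knockouts became 9 without the libraries LynBKO NT 4 and LynKO NT 4, and 1 to 14 without single mice. The 0 response differences became 1 without the filter (Ccnd2 with LPS in LynKO cells, adjusted p = 0.0163), and 0 without single mice. With the replicate block, these counts were 68, 31, 11, 0, 14 and 0; the block added Cdkn1a with LPS, Cdkn1b with R848 and Mxd1 without ligand to LynKO against WT (adjusted p = 0.0103, 0.0163 and 0.0481). Between genotypes, where the numbers do not pair mice, same-numbered libraries correlated at a median of 0.135, and 49 of 72 correlated best with their own number. The order of the members by level per kb was the same in the 12 groups with library totals in place of TMM. Either scaling treats all genes of a library alike, so it could hardly change that order.

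Over all genes, some counts of calls moved more than 1.5 times. LPS against R848 in LynAKO cells gave 2463 calls and 4048 with the replicate block. LynKO against WT with R848 gave 829, with 1250 by DESeq2, 1280 without the filter, 1753 with the replicate block and 1406 with all libraries in the fit. For LynAKO against LynKO the counts were 153 with LPS, 120 with R848 and 474 without ligand. DESeq2 gave 340, 393 and 759, no filter 486, 456 and 833, and with LPS and R848 the replicate block gave 267 and 419 and all libraries 259 and 376. For LynBKO against LynKO they were 88, 241 and 499. DESeq2 gave 344, 677 and 796, no filter 508, 830 and 889, and with LPS and R848 the replicate block gave 211 and 881 and all libraries 185 and 654. Sex as a covariate gave 158 for LynBKO with LPS and 186 for LynAKO with R848. Without the libraries of both sexes the untreated counts against LynKO were 257 for LynAKO and 80 for LynBKO. LynAKO against WT gave 3, 1 and 4 calls with LPS, with R848 and without ligand, 9, 5 and 12 with DESeq2, 91, 44 and 131 without the filter and 5, 4 and 2 with the replicate block. With all libraries it gave 4 with R848 and 7 without ligand. LynBKO against WT gave 5, 0 and 9, with 28, 16 and 124 by DESeq2, 131, 88 and 471 without the filter and 16, 17 and 14 with the replicate block. With all libraries it gave 3 and 9 with the ligands, with sex as a covariate 3 with R848, and without the libraries of both sexes 3 without ligand. LynAKO against LynBKO, at 0 each, gave 13, 27 and 199 without the filter and 1 untreated with DESeq2. The LynKO response differed from WT in 14 genes with LPS and 27 with R848, 66 and 81 with DESeq2, 125 and 148 without the filter, 121 and 173 with the replicate block, 22 and 3 with only the groups compared, and 6 and 17 without the libraries of both sexes (28 with LPS with sex as a covariate). For LynAKO and LynBKO these were 0, and 15 to 23 without the filter, with at most 2 under other settings. The causes were not tested.

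Ccnd1, Ccnd2 and Myc had the lowest counts among the members, with as few as 50, 25 and 42 in a library. SDs and p-values cover the spread between mice of 1 experiment. Overlapping antisense genes, 2 libraries of both sexes and a lower macrophage marker sum in LynKO cells limit single values. These data give RNA levels at 2 h only, with no protein or cell cycle measurement.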
